A study of Drosophila melanogaster with 19 samples.

Results

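The 40 genes described here encode receptors for acetylcholine, GABA, glutamate, serotonin, dopamine, octopamine, adenosine and the neuropeptide Pdf. They were taken as a list of FlyBase symbols by the transmitter they bind, and all 40 were found among the 13929 genes of the count tables. Nuclear RNA was sequenced from photoreceptors of male *Drosophila melanogaster*, in 19 libraries that fall into 7 groups. Flies were aged 20, 30, 40, 50 or 60 days after eclosion (D20, D30, D40, D50 and D60, 3 libraries each), or came from constant darkness (DD, 2 libraries) or from a light:dark cycle (LD, 2 libraries). All groups shared 1 genotype, w;; with UAS-GFP-Msp300KASH at attP2, rh1-GAL4 and ry[506], so that flies of every group carried the same tag and driver. The growth text, which is the same for the DD and the LD libraries, gives rearing at 25 degrees C under 12:12 light:dark and collection at ZT 6, so DD was set apart by the sample titles and by the study's description of flies reared without light. The labels give no age for DD and LD. Day 10 stands in the headings of their count columns but not in their titles, which leaves the age of these flies unsure.

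Several features limit these groups as a model. The rh1-GAL4 driver places the nuclear tag in outer photoreceptors only, so the libraries are enriched for nuclei of that cell type, and each library came from a pool of flies. Only nuclear RNA was read, which is transcript before translation and says nothing of receptor protein. In such bulk libraries, fewer nuclei of a type and less RNA per nucleus cannot be told apart.

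A neurotransmitter receptor is either an ion channel that opens when the transmitter binds, as the nicotinic, GABA-A type and ionotropic glutamate receptors are, or a G protein coupled receptor that acts more slowly through second messengers, as the muscarinic, GABA-B, amine, adenosine and Pdf receptors are. Fly photoreceptors themselves release histamine onto neurons of the lamina, and receive synapses and modulatory signals in return. Amines, among them dopamine, octopamine and serotonin, are known to tune insect photoreceptors, and Pdf is the peptide that clock neurons use to signal to each other.

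Depth differed between the groups. The D30 to D60 libraries held 629634 to 864536 counts, the D20 libraries 4525799 to 5100377, and the DD and LD libraries 16255052 to 19704692. Levels of a gene are given as CPM, its counts scaled to the size of the library, and levels of different genes are compared only as RPKM, the CPM divided by exon length in kilobases. Both were scaled within each of the 2 deposited tables, 1 with D30 to D60 and 1 with D20, DD and LD, so a level in 1 table cannot be tested against a level in the other without the table entering the difference. The 14 outer photoreceptor markers, led by the visual pigment and phototransduction genes, summed to 77073 to 163128 CPM in every library, and none of them was at 0 in any group. The 4 opsins of inner photoreceptors summed to 64.5 to 191 CPM in D20 to D60, but to 4019 to 5176 CPM in DD and to 2814 to 2870 CPM in LD. Markers of other cells were present too, with cholinergic markers at 29.8 to 72.0 CPM and glial markers at 215 to 542 CPM in D20 to D60. In LD, cholinergic markers reached 240 CPM and monoaminergic markers 392 CPM. Of the neuronal markers, *Tdc2* was at 0 throughout D40 and *bsh* throughout D30. The share of receptor reads that came from such cells was not tested.

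*DopEcR*, which encodes a G protein coupled receptor for dopamine and ecdysone, had the highest level of the 40 genes in each of the 7 groups. Over D30 to D60 it averaged 239.5 RPKM, with single libraries from 169 to 321 RPKM, a level above that of 99.3% of all genes. *AdoR*, the adenosine receptor, was next at 39.3 RPKM, so that *DopEcR* stood at 6.10 times *AdoR*, and *AdoR* at 4.603 times the third gene. The remaining 38 genes all averaged under 10 RPKM, and 27 of them under 3 RPKM. The order was thus steep at its top and shallow below it.

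*DopEcR* alone took 55.5 to 56.4% of the counts of the 40 genes in D30 libraries, and 50.9 to 54.3% in D60 libraries. Its share was 60.1 to 63.8% in D20. The share reached 72.5 and 73.2% in the DD libraries, against 42.0 and 28.6% in the LD libraries. In D50 the share differed more between replicates, from 42.6 to 66.5%, than it did between D30 and D60.

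**Figure D1:**
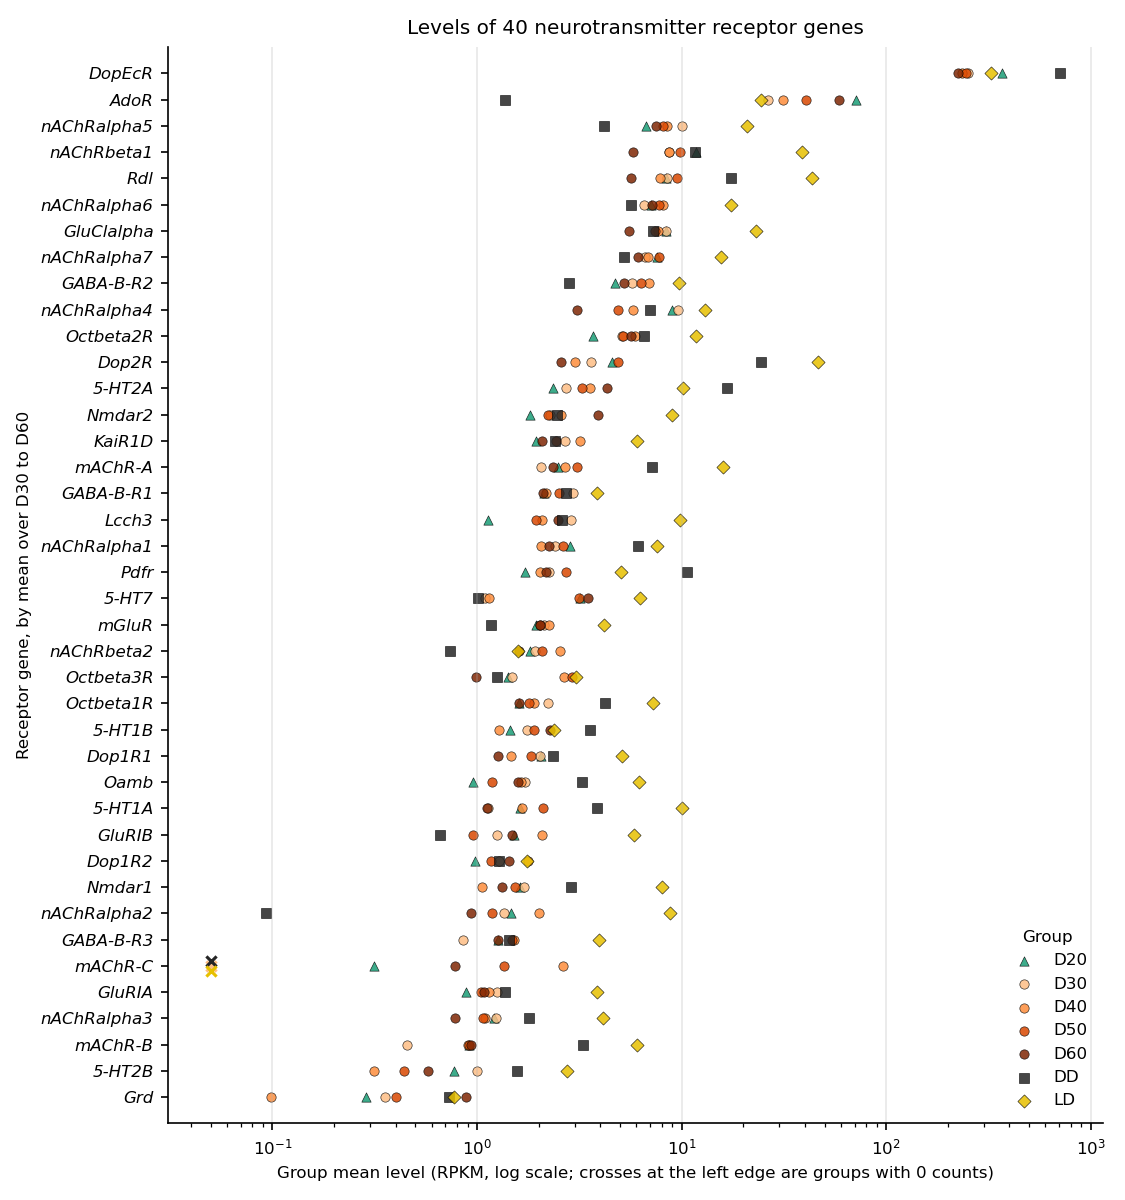
Group mean level of each of the 40 receptor genes (RPKM, log axis), ordered by the mean over D30 to D60, with 1 point per group (3 libraries each for D20 to D60, 2 each for DD and LD). *DopEcR* stands at the right in every group, *AdoR* is second in D20 to D60 but at 1.37 RPKM in DD, and most other genes lie between 1 and 10 RPKM.

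Behind *AdoR*, the levels fell in small steps that replicate spread covered. *nAChRalpha5*, a subunit of the nicotinic channels that carry fast excitation by acetylcholine, averaged 8.53 RPKM over D30 to D60 with single libraries from 3.55 to 12.6 RPKM. *nAChRbeta1*, another nicotinic subunit and a target of neonicotinoid insecticides, averaged 8.24 RPKM (3.52 to 14.97). *Rdl*, the GABA-gated chloride channel known for dieldrin resistance, averaged 7.87 RPKM (5.09 to 12.7). The ranges of these neighbours overlapped almost fully, so no order among them holds beyond their spread. *nAChRalpha6*, *GluClalpha*, *nAChRalpha7*, *GABA-B-R2*, *nAChRalpha4* and *Octbeta2R* came next, at 7.40 to 5.45 RPKM. *Grd*, a GABA receptor subunit, was the lowest at 0.434 RPKM. *mAChR-C*, a muscarinic receptor, had 0 counts in every library of D30, DD and LD. A count of 0 there allowed up to 4.70 CPM in the shallowest D30 library but only 0.191 CPM in DD replicate 1.

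By transmitter, the acetylcholine receptors held both some of the higher and some of the lower genes. The 9 nicotinic subunits summed to 318 ± 50.2 CPM at D30, 292 ± 99.8 CPM at D40, 292 ± 96.5 CPM at D50 and 238 ± 48.4 CPM at D60 (SD, n = 3 each). *nAChRalpha1*, *nAChRbeta2*, *nAChRalpha2* and *nAChRalpha3* made up the lower part of this class, at 2.34, 2.04, 1.37 and 1.04 RPKM over D30 to D60. The 3 muscarinic receptors, which are G protein coupled, summed to 13.3 ± 1.33 CPM at D30 and 18.2 ± 5.92 CPM at D60, with *mAChR-A*, which acts through phospholipase C, the highest at 2.54 RPKM.

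Among the receptors for inhibitory transmitters, *Rdl*, *GluClalpha* and *GABA-B-R2* had the highest means. *GABA-B-R2* stood at 6.07 RPKM over D30 to D60 and *GABA-B-R1* at 2.44 RPKM, although their proteins form a pair in the working receptor. *GABA-B-R3* was at 1.28 RPKM and *Lcch3* at 2.35 RPKM. The receptors that carry excitation by glutamate were low throughout, with *Nmdar2* at 2.74, *KaiR1D* at 2.60, *GluRIB* at 1.44, *Nmdar1* at 1.40 and *GluRIA* at 1.13 RPKM, and *mGluR*, the metabotropic glutamate receptor, was at 2.11 RPKM.

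The amine receptors other than *DopEcR* were led by *Octbeta2R*, an octopamine receptor that raises cyclic AMP, at 5.45 RPKM over D30 to D60. *Dop2R* followed at 3.53 RPKM and *5-HT2A* at 3.47 RPKM. The D1-like receptors *Dop1R1* and *Dop1R2* were at 1.65 and 1.42 RPKM, so *DopEcR* exceeded each other dopamine receptor by more than any spread between libraries. The remaining octopamine receptors (*Octbeta3R*, *Octbeta1R* and *Oamb*) were at 2.01 to 1.54 RPKM, and the remaining serotonin receptors (*5-HT7*, *5-HT1B*, *5-HT1A* and *5-HT2B*) at 2.22 to 0.583 RPKM. *Pdfr* was at 2.29 RPKM.

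Counts were small for most genes at D30 to D60. Only 19 of the 40 genes averaged at least 10 counts per library in these 12 libraries, 4 averaged at least 50, and 2, *DopEcR* and *AdoR*, at least 100. In consequence 25 of the genes passed the filter on low counts in at least 1 comparison within D30 to D60, and 15 passed in none. These 15 were *nAChRalpha2*, *nAChRbeta2*, *mAChR-B*, *mAChR-C*, *Lcch3*, *Grd*, *GABA-B-R3*, *Nmdar1*, *GluRIA*, *GluRIB*, *5-HT1A*, *5-HT1B*, *5-HT2B*, *Dop1R2* and *Oamb*, so nothing can be said of their change with age at this depth. A total of 17 genes were tested in all 6 comparisons, and *mAChR-C* was tested in none. Counts and medians below cover the genes tested in each comparison and not all 40.

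Across the ages, *nAChRalpha4* was lower and *AdoR* and *5-HT7* were higher in older flies, while the other receptor genes tested did not pass. *5-HT7* was admitted to the slope test only through the older groups, where it was high. The 3 later ages were set against D30 one at a time, and a linear slope was fitted to age over the 12 libraries of D30 to D60. These 4 tests share the D30 libraries and are not independent of each other. A gene was called where the adjusted p-value of edgeR's quasi-likelihood test, taken over all genes tested, was under 0.05.

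*nAChRalpha4* encodes a nicotinic subunit known in flies for its part in sleep, and its gene spans positions 23206669 to 23287448 on the plus strand of chromosome 3L (BDGP6, the coordinates of dm6). Its level was 50.1, 51.2 and 72.2 CPM at D30 and 16.7, 50.3 and 38.6 CPM at D40. It was 29.3, 39.0 and 20.4 CPM at D50 and 17.9, 11.8 and 26.0 CPM at D60. Every D60 library and every D50 library lay below every D30 library, and D40 overlapped D30 through its second replicate.

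The D60 level of *nAChRalpha4* was 0.327 times the D30 level, a log2 fold change of -1.61 ± 0.30 (SE, n = 3 each) with an adjusted p of 0.00259 in edgeR. The slope over D30 to D60 was -0.51 ± 0.11 on the log2 scale per 10 days (SE, n = 12), with an edgeR adjusted p of 0.0036. These levels rested on 9 to 49 counts per library. In D60 against D30 the gene passed the count filter only through D30, where it was high. That call is therefore not separate evidence of a fall. In the slope test its D40 and D50 libraries passed the filter as well. The D50 change of -0.94 had an adjusted p of 0.174 in edgeR and did not pass. At D20 the level was 54.2 ± 6.06 CPM (SD, n = 3), and the change of D30 against D20 was 0.20 with an adjusted p of 0.482. Exons of *nAChRalpha4* share bases with transposon insertions and a long noncoding RNA, up to 351 bases with 1 of them, so reads of the 2 kinds could have been counted together.

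*AdoR* encodes the adenosine receptor of the fly, which raises cyclic AMP, and lies at positions 30134856 to 30149606 on the minus strand of chromosome 3R. Its level was 161, 57.6 and 61.85 CPM at D30 and 213, 53.8 and 64.0 CPM at D40. It was 160.5, 104 and 163 CPM at D50 and 210.1, 214 and 199 CPM at D60. Replicate 1 stood far above the others at D30 and at D40. All 3 D60 libraries nevertheless lay above all 3 D30 libraries, by 37 CPM at the closest pair.

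The D60 level of *AdoR* was 2.27 times the D30 level, a log2 fold change of 1.19 ± 0.31 (SE, n = 3 each) with an edgeR adjusted p of 0.0156. Its slope was 0.39 ± 0.13 per 10 days (SE, n = 12) with an edgeR adjusted p of 0.0334. The call at D60 was lost in 5 of the 6 fits that left out 1 library, with edgeR adjusted p-values of 0.0562 to 0.0685, and held without D30 replicate 1, where the change was 1.82. The slope call was lost in 5 of the 12 such fits, with an edgeR adjusted p of up to 0.102. Of its exon bases, 60.1% lie in exons of an antisense RNA gene, and counting by strand was not given, so reads of these genes cannot be told apart.

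*5-HT7* encodes a serotonin receptor that raises cyclic AMP, at positions 30968236 to 31016875 on the minus strand of chromosome 3R. Its level was 4.70, 1.28 and 8.84 CPM at D30 and 5.95, 5.85 and 3.62 CPM at D40. It was 16.4, 17.1 and 8.92 CPM at D50 and 14.9, 13.1 and 19.2 CPM at D60. All D60 and D50 libraries were above all D30 and D40 libraries. The gap from D50 replicate 3 to D30 replicate 3 was narrow, and the levels rested on 1 to 14 counts. *5-HT7* was too low for the test of D60 against D30, but its slope of 0.65 ± 0.17 on the log2 scale per 10 days (SE, n = 12) passed with an edgeR adjusted p of 0.00889. It passed the count filter of the slope test only through D50 and D60 libraries, where it was high. The call is therefore not separate evidence of a rise.

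**Figure D2:**
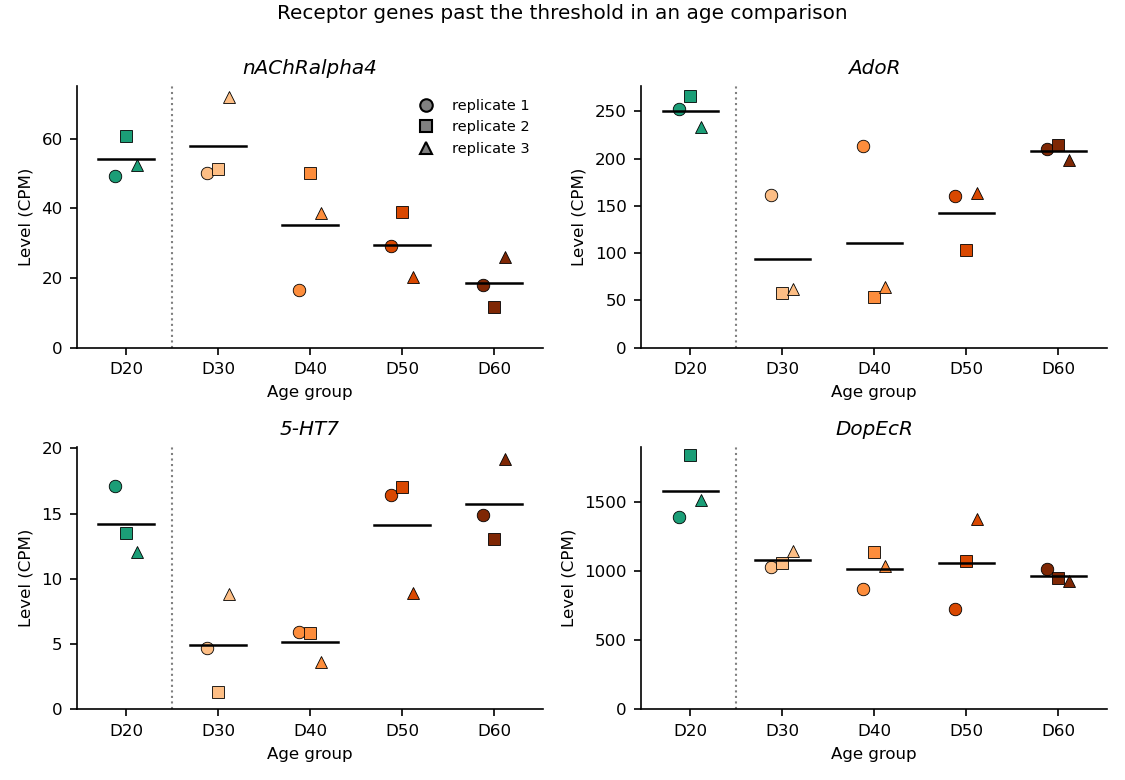
Level (CPM, linear axes from 0) of *nAChRalpha4*, *AdoR*, *5-HT7* and *DopEcR* in each library of D20 to D60, with the marker shape for the replicate number and a bar for the group mean. D20, left of the dotted line, comes from another table. *nAChRalpha4* declines to 18.6 CPM at D60, *AdoR* shows its high replicate 1 at D30 and D40, *5-HT7* steps up at D50, and *DopEcR* stays near 1000 CPM at D30 to D60.

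Of the 17 receptor genes tested in D60 against D30, 2 were called, 1 higher and 1 lower. The background was 23.6% of all genes tested, 12.9% higher and 10.7% lower. The median log2 change of the tested receptor genes was -0.14, beside -0.01 over all genes tested. The D60 and D30 libraries did not overlap for 3 receptor genes that were higher (*AdoR*, *Nmdar2* and *5-HT2A*) and 4 that were lower (*nAChRalpha4*, *Dop1R1*, *GluClalpha* and *DopEcR*), against 20.2 and 19.7% of all genes. *Nmdar2* and *5-HT2A* passed the count filter only through D60, where they were high, and *nAChRalpha4* only through D30, where it was high. The lack of overlap for them is therefore not separate evidence of a change.

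Several genes came near the threshold at D60 and are given by value. *Nmdar2*, a subunit of the NMDA receptor, was at 28.3, 35.3 and 30.1 CPM at D60, against 10.96, 23.0 and 20.6 CPM at D30, with a log2 change of 0.78 and an edgeR adjusted p of 0.0921. *5-HT2A*, a serotonin receptor that acts through phospholipase C, had a log2 change of 0.68 with an edgeR adjusted p of 0.148. *Dop1R1*, a D1-like dopamine receptor, was at 20.9, 19.6 and 15.1 CPM at D60, against 28.2, 28.2 and 32.4 CPM at D30 (-0.65, edgeR adjusted p 0.112). None of these passed.

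The 2 inhibitory chloride channels lay lower in D60 by a similar amount. *GluClalpha*, the glutamate-gated chloride channel on which ivermectin acts, was at 38.7, 26.1 and 45.2 CPM at D60, against 50.1, 51.2 and 66.3 CPM at D30. Its log2 change was -0.59 ± 0.25 (SE, n = 3 each), with an edgeR adjusted p of 0.11. *Rdl* was at 46.2, 45.8 and 60.3 CPM at D60, against 50.1, 97.3 and 81.0 CPM at D30. Its log2 change was -0.58 ± 0.24 with an edgeR adjusted p of 0.111, and the groups overlapped. Neither gene passed with all libraries. D30 replicate 1 was the lowest D30 library for both, and without it 7 receptor genes were called in D60 against D30, namely *5-HT7*, *AdoR*, *DopEcR*, *GluClalpha*, *nAChRalpha4*, *nAChRalpha5* and *Rdl*. Among these, *5-HT7* was not tested with all libraries and passed the count filter there only through D60, where it was high. The share of all genes called in that fit is not given, so the added calls are not read as a result about the receptors.

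The top nicotinic subunits varied with replicate more than with age. *nAChRalpha5* averaged 94.4 ± 25.5 CPM at D30, 79.5 ± 42.9 CPM at D40, 75.8 ± 23.5 CPM at D50 and 70.2 ± 10.8 CPM at D60 (SD, n = 3 each). In single libraries, *nAChRalpha5* stood at 65.8, 102 and 114.9 CPM at D30, at 33.3, 118 and 86.9 CPM at D40, at 71.5, 101.2 and 54.8 CPM at D50, and at 80.5, 58.8 and 71.2 CPM at D60. The groups overlapped at every step, and its slope of -0.13 per 10 days had an edgeR adjusted p of 0.418. *nAChRbeta1* was at 34.5, 17.9 and 25.0 CPM at D30, at 20.2, 25.7 and 31.4 CPM at D40, at 44.5, 31.7 and 11.5 CPM at D50, and at 19.4, 10.5 and 21.9 CPM at D60. Its groups overlapped as well, and the D60 change of -0.55 had an edgeR adjusted p of 0.326.

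*DopEcR*, the gene measured with the smallest error, was close to level over these ages. It was at 1031, 1057 and 1143 CPM at D30, 866, 1136 and 1035 CPM at D40, 725, 1071 and 1377 CPM at D50, and 1015, 949 and 926 CPM at D60. The D60 libraries lay just below the D30 libraries without overlap. The log2 change was -0.14 ± 0.09 (SE, n = 3 each) with an edgeR adjusted p of 0.295, and the slope was -0.04 ± 0.05 per 10 days with an edgeR adjusted p of 0.686.

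**Figure D3:**
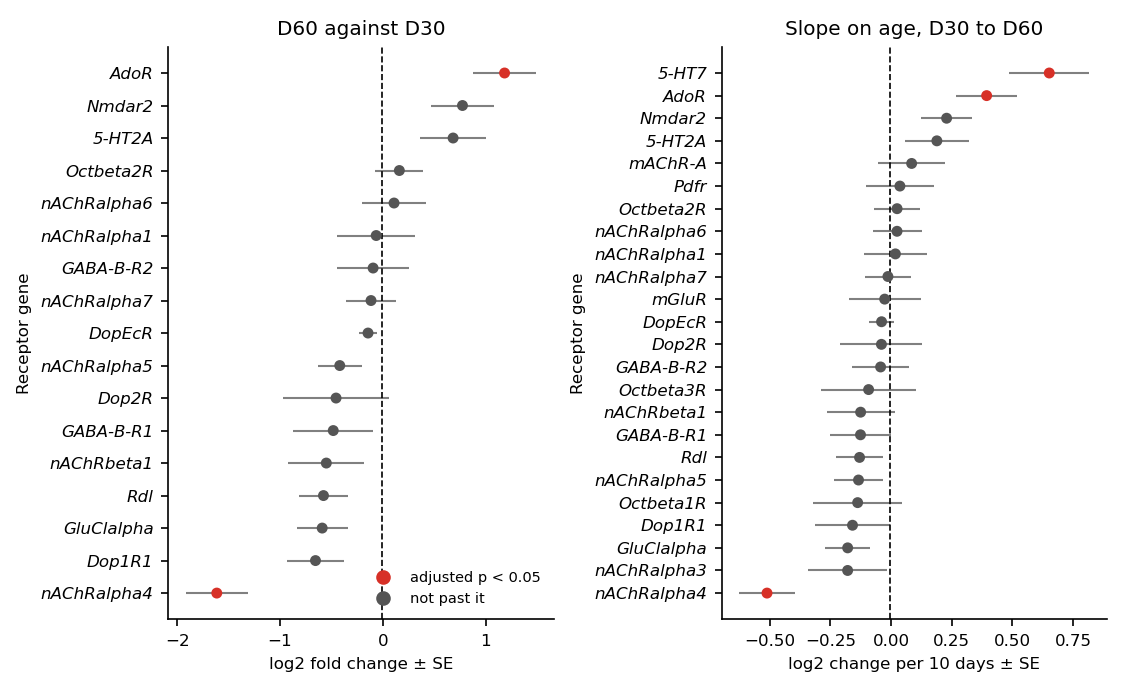
Log2 change with its standard error for each receptor gene tested in D60 against D30 (left, 17 genes, 3 libraries per group) and slope on age per 10 days (right, 24 genes, 12 libraries), with genes past the adjusted p threshold of 0.05 in red. *nAChRalpha4* lies lowest in both panels, at -1.61 and -0.51, and *AdoR* is past the threshold in both.

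Earlier steps gave fewer calls. In D40 against D30, edgeR called 0 of the 20 receptor genes tested, with 0 at an unadjusted p under 0.05 (6.70% of all genes) and 0 called by DESeq2, where edgeR called 0.0238% of all genes. In D50 against D30, edgeR called 0 of 20, with *nAChRalpha4* the 1 gene at an unadjusted p under 0.05 (14.7% of all genes) and 0 called by DESeq2, where edgeR called 1.36% of all genes. Without D30 replicate 1, *AdoR* was called in D50 against D30. The medians of the receptor genes were 0.02 and 0.10 in these comparisons, beside 0.00 over all genes in both. The slope test called 3 of 24 genes, 2 higher and 1 lower, where 18.9% of all genes were called, 10.6% higher and 8.32% lower, and the median slope was -0.04, beside -0.00 over all genes.

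Some markers of other cells differed between the same ages. The 7 glial markers summed to 481 to 542 CPM in D60, against 215 to 237 CPM in D30, and none of them was at 0 throughout a group. *Eaat1*, a glutamate transporter of glia, made most of that difference, at 316, 315 and 351 CPM in D60, against 61.1, 42.2 and 28.0 CPM in D30. It was the 1 of the 4 glial markers tested that edgeR called, while *Gs2*, *nrv2* and *moody* had log2 changes of -0.23, 0.24 and -0.29. The outer photoreceptor markers were at 88795 to 94733 CPM in D60, against 82374 to 87292 CPM in D30. Cholinergic markers lay at 34.0 to 44.7 CPM in D60, against 29.8 to 47.4 CPM in D30. The glutamatergic marker was at 26.8 to 31.5 CPM in D60, against 37.6 to 44.8 CPM in D30, the muscle markers at 47.1 to 55.1 CPM in D60, against 57.4 to 113.9 CPM in D30, and the fat body markers at 1.49 to 2.74 CPM in D60, against 4.70 to 16.6 CPM in D30. Hemocyte markers were at 27.4 to 40.5 CPM in D60, against 21.9 to 26.5 CPM in D30. Apart from the cholinergic markers, none of these sums overlapped between D60 and D30. The inner photoreceptor, GABAergic, monoaminergic and lamina sums did overlap. The part of other cell types in the receptor changes was not tested.

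Between D20 and D30, *AdoR*, *5-HT7* and *DopEcR* were lower and *nAChRalpha5* was higher in D30. *5-HT7* was admitted to this test only through D20, where it was high. Because D30 and D20 come from separate tables that differ in depth, table and age cannot be told apart in this comparison. *AdoR* was at 161, 57.6 and 61.85 CPM in D30, against 253, 266 and 233 CPM in D20, a log2 fold change of -1.34 ± 0.27 (SE, n = 3 each) with an edgeR adjusted p of 0.00301. All D30 libraries lay below all D20 libraries.

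*5-HT7* was at 4.70, 1.28 and 8.84 CPM in D30, against 17.1, 13.5 and 12.0 CPM in D20, with no overlap. Its log2 change was -1.46 ± 0.47 with an edgeR adjusted p of 0.0417. It passed the count filter of this comparison only through D20 libraries, where it was high. The call is therefore not separate evidence of a fall. *DopEcR* was at 1031, 1057 and 1143 CPM in D30, against 1392, 1838 and 1512 CPM in D20, again with no overlap. Its change of -0.45 ± 0.12 had an edgeR adjusted p of 0.0172. *nAChRalpha5* was at 65.8, 102 and 114.9 CPM in D30, against 54.0, 77.8 and 56.7 CPM in D20, and here the groups overlapped. Its change of 0.71 ± 0.20 had an edgeR adjusted p of 0.0243. Without D30 replicate 2 the *AdoR* call held alone, without D20 replicate 1 or D20 replicate 3 *AdoR* and *DopEcR* were called, and the *nAChRalpha5* call was lost in 4 of the 6 fits that left out 1 library.

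Of the 35 receptor genes tested in D30 against D20, 4 were called, 1 higher and 3 lower, where 21.2% of all genes were called, 11.8% higher and 9.48% lower. Their median log2 change was 0.15, beside 0.01 over all genes. Libraries of D30 and D20 did not overlap for 2 receptor genes that were higher and 6 that were lower, against 14.0 and 24.9% of all genes. *5-HT7*, which is among the 6 and among the 3 called lower, passed the count filter only through D20, where it was high. *Oamb*, which is among the 2, passed it only through D30, where it was high. Octopamine receptors were all above 0 in this comparison, at 0.15 to 0.95 on the log2 scale, and none of them passed. Of the 35 receptor genes tested, 23 were above 0, and the share of all genes is not given. *Oamb*, the octopamine receptor that raises calcium, had the largest change of the octopamine receptors (0.95, edgeR adjusted p 0.113).

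Marker levels differed between D30 and D20 as well. The outer photoreceptor markers summed to 82374 to 87292 CPM in D30, against 120241 to 125714 CPM in D20, and the glial markers to 215 to 237 CPM in D30, against 328 to 348 CPM in D20. Cholinergic markers were at 29.8 to 47.4 CPM in D30, against 54.2 to 60.1 CPM in D20, and hemocyte markers at 21.9 to 26.5 CPM in D30, against 67.0 to 75.7 CPM in D20. All 4 sums were lower in D30 without overlap, as were the fat body markers, at 4.70 to 16.6 CPM, against 30.6 to 46.9 CPM in D20. Muscle markers lay the other way, at 57.4 to 113.9 CPM in D30, against 29.6 to 42.0 CPM in D20. The inner photoreceptor, GABAergic, glutamatergic, monoaminergic and lamina sums overlapped. The part of other cell types in these receptor changes was not tested.

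In constant darkness most receptor genes lay lower than in the light:dark cycle while *DopEcR* lay higher, and no single gene passed the test with 2 libraries per group. EdgeR called 0 of the 39 genes tested, with 17 at an unadjusted p under 0.05 (43.6%, against 8.43% of all genes). Over all genes tested, edgeR called 0.0250%. DESeq2 called 20 receptor genes. Its share of all genes called is not given, so this count is not read as a result about the receptors. With 1 library left out, which leaves a lone library in a group, the median log2 change of the receptor genes stayed between -1.62 and -1.03. The log2 change was below 0 for 35 of the 39 receptor genes, against 46.9% of all genes. DD and LD libraries did not overlap for 28 of the 39 (71.8%) that were lower, against 16.8% of all genes, and for 2 (5.13%) that were higher, against 25.6%. The 35 and the 28 include *nAChRalpha2* and *Lcch3*, which passed the count filter only through LD, where they were high. *nAChRalpha2* is also among the 17. The median change of the receptor genes was -1.30, beside 0.06 over all genes. With library size alone as the scaling, the median over all genes moved to -0.21 and that of the receptor genes to -1.56.

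*DopEcR* was at 3223 and 2861 CPM in DD, against 1617 and 1186 CPM in LD, so both DD libraries lay above both LD libraries. Its log2 change was 1.10 ± 0.21 (SE, n = 2 each), or 2.15-fold, with an edgeR adjusted p of 0.183. *AdoR* went the other way, at 4.38 and 5.26 CPM in DD, against 108 and 65.3 CPM in LD. These levels rested on 69 and 97 counts in DD, against 2072 and 1605 counts in LD. Its log2 change of -4.18 ± 0.51 (SE, n = 2 each) had an edgeR adjusted p of 0.0829. In the order of levels per exon length, *AdoR* stood at place 31 in DD, against place 5 in LD.

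**Figure D4:**
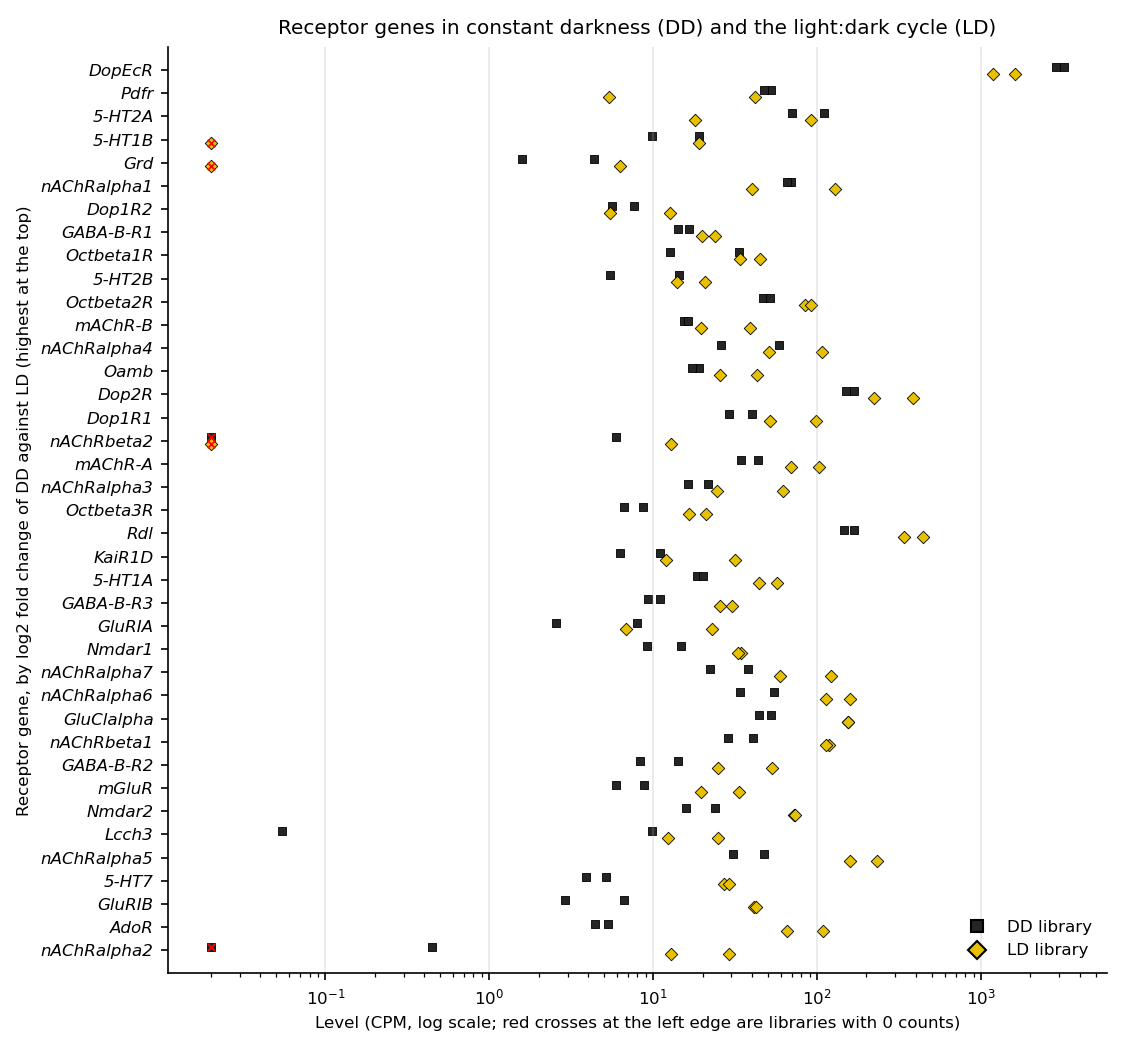
Level (CPM, log axis) of the 39 receptor genes tested in each DD and LD library, ordered by the log2 change, with libraries at 0 counts drawn as crosses at the left edge. *DopEcR* is at the top with both DD libraries right of both LD libraries, and for 28 genes further down both DD libraries lie left of both LD libraries.

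The ion channels all had log2 changes below 0 in DD against LD, but not all with a clear direction. All 18 were tested and 18 were below 0, against 46.9% of all genes. DD lay below LD without overlap for 13, against 16.8% of all genes, and the median change was -1.56. The 18 and the 13 include *nAChRalpha2* and *Lcch3*, which were admitted to the test only through LD, where they were high. The error exceeded the change for some, as for *Grd* (-0.13 ± 3.18, SE) and *nAChRbeta2* (-1.16 ± 3.60), which had 0 counts in LD replicate 1. The summed level of the 18 channels was 543 ± 119 CPM in DD, against 1520 ± 295 CPM in LD (SD, n = 2 each). Of the 21 G protein coupled receptors tested, 17 were below 0, 15 were lower without overlap and 2 were higher without overlap, with a median of -0.94. The shares of all genes were 46.9% below 0, 16.8% lower without overlap and 25.6% higher without overlap.

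Among the channels, *nAChRalpha5* was at 47.6 and 30.9 CPM in DD, against 158 and 232 CPM in LD. Its log2 change was -2.34 ± 0.35 (SE, n = 2 each) with an edgeR adjusted p of 0.107. *GluClalpha* was at 52.3 and 44.3 CPM in DD, against 154 and 154 CPM in LD, a change of -1.69 ± 0.25 with an edgeR adjusted p of 0.107. *Rdl* was at 169 and 145 CPM in DD, against 339 and 442 CPM in LD, and *nAChRbeta1* was at 40.5 and 28.7 CPM in DD, against 118 and 113 CPM in LD. Their changes were -1.33 and -1.76, with edgeR adjusted p-values of 0.128 and 0.152. The groups did not overlap for any of these genes. *nAChRalpha4* did overlap, at 58.5 and 26.0 CPM in DD, against 51.0 and 107 CPM in LD.

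The excitatory glutamate receptors were low in both groups. *GluRIB*, an AMPA type subunit, was at 6.61 and 2.87 CPM in DD libraries, against 41.5 and 42.6 CPM in LD libraries, with a log2 change of -3.17 ± 0.84 and an edgeR adjusted p of 0.323. The AMPA and kainate type genes together summed to 18.6 ± 9.77 CPM in DD, against 78.5 ± 24.3 CPM in LD (SD, n = 2 each). The NMDA receptor genes *Nmdar1* and *Nmdar2* summed to 31.8 ± 9.63 CPM in DD, against 106 ± 0.250 CPM in LD. *Nmdar2* alone was at 23.8 and 15.8 CPM in DD, against 72.0 and 73.1 CPM in LD. No library of DD reached a library of LD in these sums.

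The amine receptors were less uniform. *Dop2R*, the D2-like dopamine receptor, was the second highest receptor gene in both groups per exon length, at 24.5 RPKM in DD and 46.7 RPKM in LD. *5-HT7* was at 5.15 and 3.91 CPM in DD, against 27.0 and 29.2 CPM in LD, with a log2 change of -2.65 ± 0.99 and an edgeR adjusted p of 0.535. Serotonin receptors as a class summed to 138 ± 29.0 CPM in DD, against 161 ± 62.8 CPM in LD, and overlapped, since *5-HT2A* and *5-HT1B* did not follow *5-HT7*. *5-HT2A* was at 69.9 and 110.3 CPM in DD, against 18.1 and 92.1 CPM in LD. *Pdfr*, the receptor of the clock peptide Pdf, was at 52.3 and 47.4 CPM in DD, against 5.37 and 42.1 CPM in LD, a change of 1.04 ± 0.95 with an edgeR adjusted p of 0.982.

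Replicates of these deep libraries disagreed for some genes. *5-HT1B* had 0 counts in LD replicate 1 and 470 in LD replicate 2, and *Pdfr* had 103 and 1034. *nAChRbeta2* had 93 and 0 counts in DD, and *Lcch3*, a GABA receptor subunit, had 155 and 1. Of the genes with counts in both replicates, 7 of 37 were over 2-fold apart in DD and 12 of 36 in LD, and a further 2 genes in DD and 3 in LD had 0 counts in 1 replicate only. These libraries held counts for 8635 and 7887 genes in DD, against 6002 and 8259 genes in LD, although the shallower D20 libraries held counts for 9970 to 11100 genes. The part of this difference in the receptor values was not tested. The biological coefficient of variation of the fit was 1.17, against 0.122 to 0.192 in the age comparisons. *nAChRalpha2*, a nicotinic subunit, had 7 and 0 counts in DD, against 558 and 314 in LD, and its fitted change depends on how counts near 0 are handled, so no fold is given.

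Markers of other cells also differed between DD and LD. The 6 monoaminergic markers summed to 112 to 166 CPM in DD, against 256 to 392 CPM in LD, and the glutamatergic marker to 74.9 to 118 CPM in DD, against 169 to 284 CPM in LD. Cholinergic markers were at 117 to 155 CPM in DD, against 181 to 240 CPM in LD. Lamina neuron markers were at 27.8 to 65.2 CPM in DD, against 81.4 to 147 CPM in LD. Hemocyte markers were at 27.3 to 29.1 CPM in DD, against 145 to 204 CPM in LD, and glial markers at 442 to 453 CPM in DD, against 427 to 776 CPM in LD. Outer photoreceptor markers lay the other way, at 152996 to 163128 CPM in DD, against 85187 to 89572 CPM in LD. Muscle markers were at 23.1 to 27.0 CPM in DD, against 76.9 to 154 CPM in LD, and fat body markers at 1.95 to 4.07 CPM in DD, against 21.9 to 27.4 CPM in LD. The monoaminergic, glutamatergic, cholinergic, lamina, hemocyte, muscle and fat body markers were thus lower in DD without overlap, as most receptor genes were. The glial and GABAergic markers overlapped, and the inner photoreceptor opsins were higher in DD. The part of these cell types in the result was not tested.

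**Figure D5:**
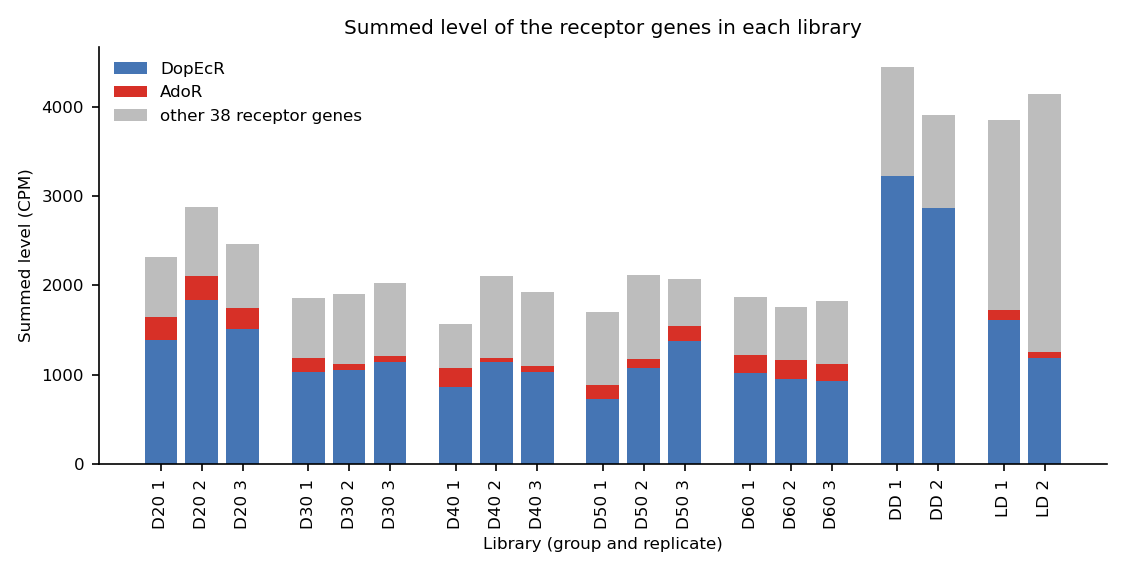
Summed level (CPM, bars from 0) of the 40 receptor genes in each of the 19 libraries, split into *DopEcR*, *AdoR* and the other 38 genes. The other 38 genes sum to 1217 and 1040 CPM in DD, against 2120 and 2888 CPM in LD, while *DopEcR* is the larger part of the DD bars.

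Counting all 40 genes together gave similar totals in DD and LD, at 4176 ± 380 CPM in DD, against 3992 ± 208 CPM in LD (SD, n = 2 each). Without *DopEcR* and *AdoR*, the other 38 genes summed to 1129 ± 125 CPM in DD, against 2504 ± 543 CPM in LD. The higher level of *DopEcR* and the lower level of the rest thus offset each other in the total. In D60 the other 38 genes summed to 643 ± 53.1 CPM, against 756 ± 82.0 CPM in D30 (SD, n = 3 each).

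Genes that make, clear or anchor the same transmitter systems were read beside the receptors. Of 22 genes for transmitter synthesis, packaging and clearance, 12 were tested in D60 against D30, with 2 higher and 1 lower, where 12.9% of all genes were higher and 10.7% lower. *ple*, tyrosine hydroxylase of dopamine synthesis, had a log2 change of 2.41 ± 0.14 and *Eaat1* of 2.92 ± 0.21 (SE, n = 3 each), with edgeR adjusted p-values of 9.25e-07 and 2.66e-06. *Ace*, acetylcholinesterase, fell by 1.39 on the log2 scale, with an edgeR adjusted p of 0.000137. *ple* was at 766, 781 and 860.1 CPM in D60, against 114, 175 and 166 CPM in D30, with no overlap.

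Of 18 other receptor genes, 4 were tested in D60 against D30 and 2 were lower, against 10.7% of all genes. *Ekar*, a kainate type receptor enriched in the eye, was at 259, 226 and 252 CPM in D60, against 424, 518 and 595 CPM in D30, a log2 change of -1.04 ± 0.13 with an edgeR adjusted p of 0.000172. *pHCl-1*, a chloride channel gated by pH, had a change of -0.57 with an edgeR adjusted p of 0.0331. Of 10 auxiliary and scaffold genes, 8 were matched and 7 were tested, and *Gprk1*, a G protein coupled receptor kinase, was the 1 called (23.6% of all genes were), at -0.60 with an edgeR adjusted p of 0.00578. In DD against LD, edgeR called 0 of the 41 genes tested in these 3 lists, with 10 at an unadjusted p under 0.05, where 0.0250% of all genes were called and 8.43% were at an unadjusted p under 0.05.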

How the data were processed

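The authors deposited raw counts per gene, without normalization, in 2 tables, 1 for D30 to D60 and 1 for D20, DD and LD. The submitters' processing notes name Trimmomatic, STAR, SAMtools and DESeq2 and the builds dm6 and BDGP6. The study's methods mention STAR's own gene counts for another analysis and DESeq2 for fold changes between pairs of groups. Whether the deposited counts were made in that way, whether strand was used, which annotation was counted and whether PCR duplicates were removed are not given in the sources used here, so counts of overlapping genes are uncertain and reads copied in PCR may inflate counts. The columns were matched to the labelled samples by name. The study's methods describe each replicate as an independent pool of flies.

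The 40 receptor genes and the other lists were chosen with earlier results of these data known. Genes were matched to positions and exon lengths in Ensembl release 115 of BDGP6, in which 13866 of 13929 genes were found. Counts were tested in edgeR 4.0.16 by its quasi-likelihood F-test (R 4.3.3), two-sided, with TMM scaling and the edgeR filter (minimum count 10, minimum total 15) on the groups compared. P-values were adjusted over all genes tested by the Benjamini-Hochberg method, and genes under 0.05 were called. Standard errors were derived from the log2 change and its F statistic. D40, D50 and D60 were compared with D30, D30 with D20, and DD with LD, and a slope on age was fitted to the 12 libraries of D30 to D60. Receptor genes given by library were those called in any comparison, the 5 with the highest mean RPKM over D30 to D60 and the 3 with the smallest adjusted p in DD against LD. *Nmdar2*, *Dop1R1*, *5-HT2A*, *GluRIB*, *Pdfr* and others outside this rule were named after their values were seen.

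Replicate numbers came from the titles. Deviations of same-numbered D40 and D30 libraries from their group means correlated at 0.122 to 0.276 across genes. Differently numbered libraries reached 0.179 (D30 replicate 2 with D40 replicate 3) and 0.136 (D30 replicate 3 with D40 replicate 2). The correlations therefore do not settle whether the numbers pair the samples, and the main fits used no block for them. Alternatives were DESeq2 1.42.0, other scaling and filters, the replicate number as a block, an offset for gene span, a shared fit and leaving out single libraries. On simulated counts, edgeR recovered 72% of genes changed by 1 on the log2 scale and 98% of those changed by 2 in D60 against D30 (4068 genes), but 5 and 21% in DD against LD (8003 genes). Of the simulated calls, 3.41% were false in D60 against D30 and 10.3% in DD against LD. The changed genes were drawn from all genes tested, so recovery at the low counts of most receptor genes was not measured. Simulated spread followed the level of a gene alone, without further differences between genes, and 100 genes were changed at each size. Recovery and the share of false calls may therefore differ in the real counts.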

Additional observations from a re-analysis of the deposited data

How the results depend on the processing

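The log2 changes of *5-HT7*, *AdoR*, *DopEcR*, *GluClalpha*, *Rdl*, *nAChRalpha4*, *nAChRalpha5* and *nAChRbeta1* kept their sign in the comparisons recomputed for them, which were DD against LD for all 8 genes and only some of the age comparisons, and changes of other receptor genes were not recomputed singly. In D60 against D30, where 2 receptor genes were called, DESeq2 called 1 and requiring 10 counts in each library left 1. Fits without 1 library gave 1 to 7, with 7 without D30 replicate 1. Shares of all genes called in these fits are not given, so the shifts are not read as a result about the receptors. *nAChRalpha4* passed in every fit of D60 against D30 that tested it, while *AdoR* had an adjusted p of 0.0954 in DESeq2. In D50 against D30, where 0 were called, fits without single libraries gave 0 to 1, with 1 (*AdoR*) without D30 replicate 1. In D30 against D20, 4 genes were called, 2 with the replicate block and a gene span offset together, and 1 to 5 without single libraries. *5-HT7* in that comparison passed in 3 of 7 other settings, with an adjusted p of up to 0.0619. In the slope on age, 3 were called, 1 when 10 counts were required in each library, and 2 to 3 without single libraries.

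In DD against LD, where edgeR called 0 receptor genes, DESeq2 called 20, no filter gave 10, requiring 10 counts in each library gave 7, the replicate block gave 9, the block with a gene span offset gave 1 (*AdoR*), a fit shared with D20 gave 9, and fits without 1 library gave 2 to 17. The lone library of a group in such a fit is assumed to vary like the others. The median change of the receptor genes stayed between -1.62 and -1.03. The share of all genes called in each of these fits is not given, so the counts are not read as a result about the receptors. The cause of these shifts was not tested.

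The replicate block called 0 receptor genes in D40 against D30, as without it. In the other comparisons, too, the libraries are known only to share a number. The mean correlation of same-numbered libraries with D30 was 0.0230 for D50 and -0.00385 for D60, with 0.00594 in D30 against D20 and -0.0279 in DD against LD, and the block called 2 receptor genes in D60 against D30 and 3 in D30 against D20. At D30 to D60, depth left 15 of the 40 receptor genes untested.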
